A study of Mus musculus with 6 samples.

Results

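The 10 genes described here encode secreted growth factors that macrophages can make during tissue repair: *Vegfa*, *Vegfb*, *Igf1*, *Pdgfa*, *Pdgfb*, *Hbegf*, *Areg*, *Ereg*, *Inhba* and *Grn*. They were taken by symbol from a table of 14097 genes, in which all 10 were listed, and all 10 were among the 11067 genes that reached 50 normalized counts in at least 1 of 6 libraries. *Ereg* reached this level only in the 12-week *Il10rb*-/- library. The list was made by name, except that *Vegfa* was also selected on its rise in *Il10rb*-/- cells in these libraries, so its genotype ratios are a description with no test. *Inhba* and *Vegfa* are also among the genes that the study picked for a change of over 3-fold by comparing the 3-week libraries, and their 3-week ratios are likewise a description.

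The libraries came from macrophages (MΦs) at the P3/P4 stages, the mature end of the series from monocyte to MΦ, of the colonic lamina propria, the connective tissue layer beneath the gut epithelium, gated as CD45+, CD11b+, CD11c intermediate, CD103-, CD64+, Ly6C- and MHCII+. Mice of the 129SvEv strain were either *Il10rb*-/- (KO), which lack the IL-10 receptor beta chain in every cell, or *Il10rb*+/- (Het), which carry 1 intact copy and served as controls. No mouse was treated, and cells were sorted straight into lysis buffer. The 6 libraries comprised 1 Het and 1 KO library at each of 1, 3 and 12 weeks of age. These ages are nominal. By the methods the 1-week mice were some days older than that, and the 3-week mice came from a span of days. At 1 week the colons of several mice were pooled for a library, whereas 1 mouse gave each library at 3 and 12 weeks, so age and pooling cannot be told apart between 1 week and the later ages.

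Growth factors bind receptors on neighbouring cells and set off division, migration or survival. In the gut wall, MΦs lie next to vessels, stromal cells and the epithelial stem cell zone, and their growth factors are studied for roles in vessel growth, matrix deposition and epithelial renewal after injury. The VEGF genes act on endothelium, the PDGF genes on mesenchymal cells, and *Areg*, *Ereg* and *Hbegf* encode ligands of the epidermal growth factor (EGF) receptor family. *Igf1* encodes insulin-like growth factor 1, *Inhba* the subunit of activin A, and *Grn* progranulin.

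Depth on the listed genes lay between 6700337 reads (3-week Het) and 40754971 reads (12-week Het). The targeted gene *Il10rb* had 1231, 386 and 2341 reads in the Het libraries at 1, 3 and 12 weeks and 8, 28 and 43 in the KO libraries, so the genotype labels of all 6 held. These reads do not check the age labels. Values are the authors' counts per gene divided by a DESeq size factor for each library (normalized counts), and reads were read back from them for counting intervals. There is 1 library per genotype and age, so none of the ratios at an age could be set against a spread of replicates. The 95% intervals given with log2 ratios are exact Clopper-Pearson intervals and cover counting error only. In a bulk library, fewer cells that express a gene and less RNA of it per cell cannot be told apart.

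Windows of 250 bases before the start of *Vegfa*, *Inhba* and *Areg* are shown because these genes had the 3 highest levels of the 10 in the 12-week KO library. RefSeq (GRCm38.p6) gave promoter windows for 7 of the 10 genes, 9 windows in all, and none for *Pdgfb*, *Hbegf* and *Ereg*. Sequences run 5′ to 3′ on the strand of the gene and end at the base before the start. Capitals mark matches to the letters searched on both strands: the hypoxia response core ACGTG, the AP-1 letters TGANTCA, the cyclic AMP response element (CRE) TGACGTCA and the SP1 letters GGGCGG. No pair of these matches overlapped in the windows shown.
*Vegfa*, chr17:46032378-46032627, minus strand: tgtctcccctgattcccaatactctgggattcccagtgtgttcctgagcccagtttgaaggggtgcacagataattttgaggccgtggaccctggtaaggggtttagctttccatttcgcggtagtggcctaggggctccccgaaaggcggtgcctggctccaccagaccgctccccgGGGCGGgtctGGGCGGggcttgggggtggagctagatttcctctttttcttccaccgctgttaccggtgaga
*Inhba*, chr13:16011601-16011850, plus strand: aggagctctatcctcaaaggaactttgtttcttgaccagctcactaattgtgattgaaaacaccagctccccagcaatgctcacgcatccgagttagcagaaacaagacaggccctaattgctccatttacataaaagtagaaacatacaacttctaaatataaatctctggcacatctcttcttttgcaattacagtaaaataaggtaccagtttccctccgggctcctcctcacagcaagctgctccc
*Areg*, chr5:91139349-91139598, plus strand: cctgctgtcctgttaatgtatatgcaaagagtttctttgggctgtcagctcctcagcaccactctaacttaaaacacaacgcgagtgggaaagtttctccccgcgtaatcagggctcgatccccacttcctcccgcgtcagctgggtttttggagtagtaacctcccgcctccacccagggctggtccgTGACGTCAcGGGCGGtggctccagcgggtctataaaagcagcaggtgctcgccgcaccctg

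The *Vegfa* window held SP1 letters that began 72 and 62 bases before the start. The *Areg* window held the CRE letters 61 bases and the SP1 letters 52 bases before the start, and the *Inhba* window held none of the 4 motifs. A second RefSeq start of *Vegfa* inside the gene had the hypoxia core 211 bases before it. Of 32851 windows of this length over all genes, 16.6% held the hypoxia core, 6.75% the AP-1 letters, 1.55% the CRE letters and 32.7% the SP1 letters. A match is a description of the letters, and neither a match nor its absence says whether a factor bound.

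Levels between genes were compared per length, on the TPM scale (reads divided by exon length, then by the sum of these length-scaled reads over the listed genes). *Grn* was the most abundant of the 10, with a median of 873.5 over the 6 libraries and a range of 409.9 to 1036. *Vegfa* followed with a median of 152.7 (39.5 to 994), then *Hbegf* at 42.9, *Pdgfb* at 39.9, *Areg* at 37.2, *Pdgfa* at 20.9, *Igf1* at 17.0, *Vegfb* at 16.5, *Inhba* at 14.3 and *Ereg* at 0.134. The range over libraries of each gene overlapped that of the next in this order, and only *Vegfa* over *Hbegf* and *Inhba* over *Ereg* kept the order in 6 of 6 libraries. The longest annotated transcript in place of the exon union gave the same order. For comparison, *Pgf*, which encodes placental growth factor of the VEGF family, had levels per length of 192, 201 and 259 in Het MΦs and 103, 161 and 41.1 in KO MΦs at 1, 3 and 12 weeks, above *Vegfb* in every library.

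The composition of the 10 genes was unlike the others in the 12-week KO library. In that library *Vegfa* was the most abundant per length at 994, with *Inhba* at 600.3, *Areg* at 479 and *Grn* at 409.9. In the other 5 libraries *Grn* came first. As a share of the summed level per length of the 10 genes, *Grn* made up 85.2% in 1-week Het, 53.8% in 12-week Het and 16.2% in 12-week KO MΦs. *Vegfa* held 39.2% and *Inhba* 23.7% in 12-week KO MΦs, against 12.1% and 0.754% in 12-week Het MΦs. *Areg* took 14.2% at 12 weeks in Het and 18.9% in KO MΦs, and at most 3.56% in the younger libraries.

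**Figure D1:**
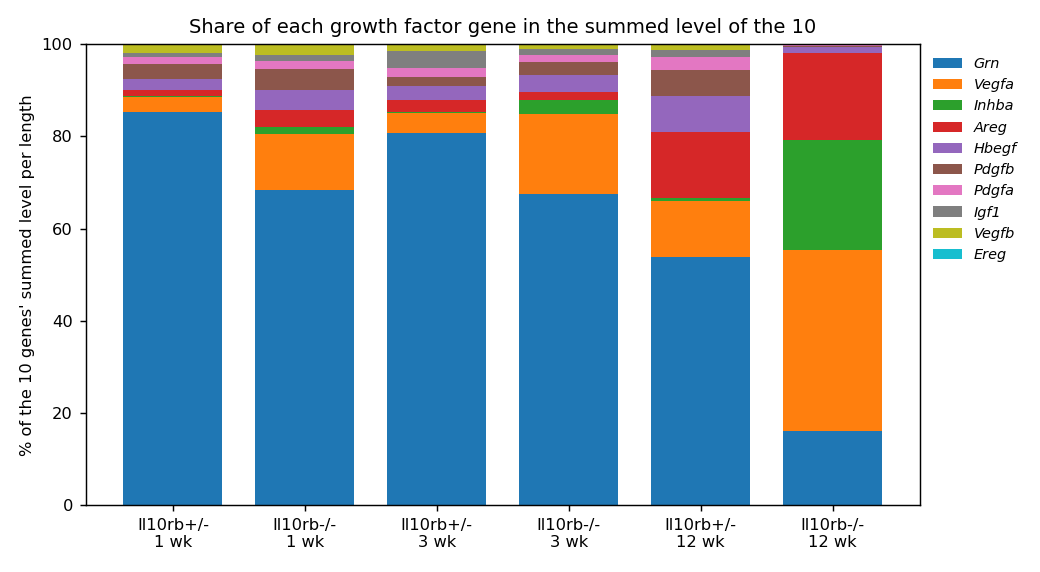
Share of each of the 10 growth factor genes (in % of their summed level per length) in the 6 libraries, 1 stacked bar per library. *Grn* fills most of every bar (53.8% to 85.2%) except that of 12-week KO MΦs (16.2%), where *Vegfa*, *Inhba* and *Areg* hold 39.2%, 23.7% and 18.9%.

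Between genotypes, *Vegfa* and *Inhba* were higher in KO than in Het MΦs by over 3-fold at each age, and at 12 weeks *Igf1*, *Pdgfa*, *Pdgfb* and *Vegfb* were lower by over 3-fold. At 1 week 2 of the 10 genes were over 3-fold higher (*Vegfa* and *Inhba*), where 2.75% of the 11067 genes were, and none was over 3-fold lower (0.75% of all genes). At 3 weeks 3 genes were over 3-fold higher (1.34% of all genes), *Vegfa*, *Inhba* and *Ereg*, the last only because 0 reads are shown as 1, and none was lower (0.642%). At 12 weeks 2 were over 3-fold higher (4.03% of all genes) and 4 over 3-fold lower (9.99%). The counts of higher genes rest in part on *Vegfa*, which was selected on this rise, and nothing is read from them. Genes nearest the threshold at 12 weeks were *Vegfb* at 3.06-fold lower, just inside it, and *Areg* at 2.84-fold higher and *Hbegf* at 2.69-fold lower, just outside. *Areg* was 2.90-fold higher at 1 week. The median log2 ratio of the 10 genes was 0.65 at 1 week, 0.20 at 3 weeks and -1.03 at 12 weeks, and that of all 11067 genes was -0.04, 0.02 and 0.04. Higher in KO MΦs were 8 of the 10 at 1 week (46.0% of all 11067 genes), 5 at 3 weeks (52.1%) and 4 at 12 weeks (52.0%). These counts include *Vegfa* as well, and nothing is read from them.

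**Figure D2:**
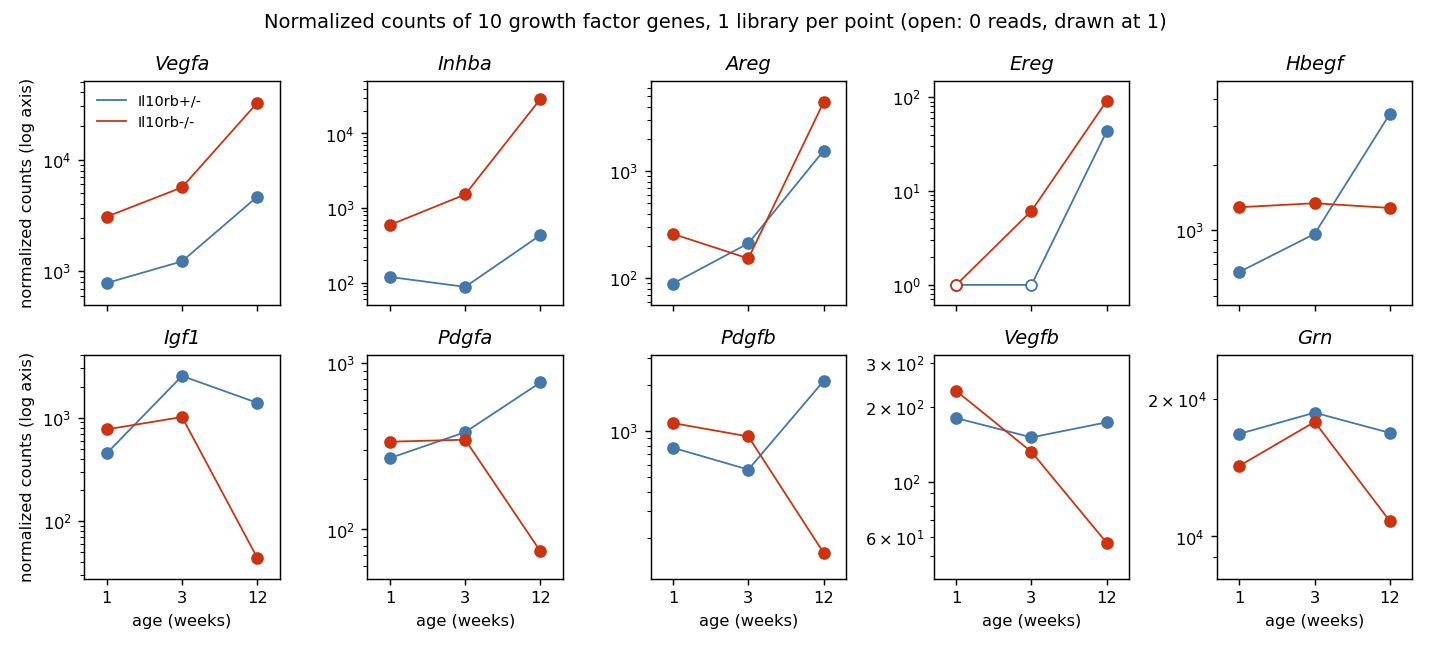
Normalized counts (log axis, own scale for each gene) of the 10 genes against age in weeks, with 1 point per library in blue for Het and red for KO, and open points for 0 reads drawn at 1. The KO point lies above the Het point at all ages for *Vegfa* and *Inhba*, and at 12 weeks far below it for *Igf1* (43.9 against 1391), *Pdgfa* (73.9 against 765) and *Pdgfb* (159 against 2115).

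*Vegfa* (ENSMUSG00000023951, GRCm38 chr17:46016993-46032369, minus strand) encodes the main growth factor of vessel endothelium and is known to be induced by low oxygen. Het MΦs had 787 normalized counts at 1 week, 1231 at 3 weeks and 4665 at 12 weeks. KO MΦs had 3090, 5653 and 32309. Each KO value thus lay above the Het value of its age, and the 3-week KO value also above the 12-week Het value. The log2 ratio of KO over Het was 1.97 (1.85 to 2.09) at 1 week, 2.20 (2.07 to 2.33) at 3 weeks and 2.79 (2.76 to 2.82) at 12 weeks, or 3.92-, 4.59- and 6.93-fold. The log2 ratio of 12 over 3 weeks was 1.92 in Het and 2.51 in KO MΦs, and both genotypes had most *Vegfa* at 12 weeks.

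*Vegfb* (ENSMUSG00000024962, chr19:6982473-6987651, minus strand), a relative of *Vegfa* tied to fatty acid handling and vessel survival, was not higher in KO MΦs beyond 1 week. It had 180, 151 and 174 normalized counts in Het and 232, 132 and 56.7 in KO MΦs at 1, 3 and 12 weeks. The KO value at 12 weeks, from 89 reads, was the lowest of the 6. Its log2 ratio was 0.36 (0.04 to 0.68) at 1 week, -0.19 (-0.63 to 0.26) at 3 weeks and -1.61 (-1.97 to -1.28) at 12 weeks, and the interval at 3 weeks held 0.

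*Inhba* (ENSMUSG00000041324, chr13:16011851-16031621, plus strand) encodes inhibin beta A, which pairs with itself to form activin A, a ligand of the TGF-beta superfamily with roles in wound repair and fibrosis. Het MΦs had 119 normalized counts at 1 week, 87.6 at 3 weeks and 434 at 12 weeks. KO MΦs had 593, 1519 and 29090. All 3 KO values lay above all 3 Het values, and the highest was 332-fold over the lowest, the widest span of the 9 genes with reads in every library. The log2 ratio was 2.32 (2.02 to 2.62) at 1 week, 4.12 (3.64 to 4.64) at 3 weeks and 6.07 (5.97 to 6.16) at 12 weeks, or 4.98-, 17.3- and 67.1-fold. The intervals at the 3 ages did not overlap, and the 3-week Het value rests on 36 reads.

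*Areg* (ENSMUSG00000029378, chr5:91139599-91148432, plus strand) encodes amphiregulin, an EGF receptor ligand known for epithelial repair in the gut. It had 89.2, 212 and 1554 normalized counts in Het and 259, 153 and 4412 in KO MΦs at 1, 3 and 12 weeks. Both genotypes were highest at 12 weeks, and the KO value was above the Het value at 1 and 12 weeks but not at 3 weeks. The log2 ratio was 1.54 (1.16 to 1.92), -0.47 (-0.85 to -0.08) and 1.51 (1.45 to 1.57) at the 3 ages. The log2 ratio of 12 over 3 weeks was 2.88 in Het and 4.85 in KO MΦs, the latter 28.8-fold.

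*Ereg* (ENSMUSG00000029377, chr5:91074622-91093646, plus strand) lies on the same chromosome and strand as *Areg* and encodes epiregulin, another EGF receptor ligand. It had 0, 0 and 92 reads in Het and 0, 7 and 144 reads in KO MΦs at 1, 3 and 12 weeks. It was thus all but undetected before 12 weeks, and the 3-week difference of 0 against 7 reads is no measured rise, as the bound against a floor of 3 reads was 0.84-fold. At 12 weeks 43.5 normalized counts in Het and 91.7 in KO MΦs gave a log2 ratio of 1.08 (0.69 to 1.47).

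*Hbegf* (ENSMUSG00000024486) encodes heparin-binding EGF-like growth factor, which is shed from the cell surface. It had 645, 964 and 3411 normalized counts in Het and 1276, 1330 and 1267 in KO MΦs at 1, 3 and 12 weeks. The 3 KO values lay close together, while the Het value was higher at each later age. The log2 ratio was 0.98 (0.83 to 1.13), 0.47 (0.30 to 0.63) and -1.43 (-1.50 to -1.36) at the 3 ages, so KO MΦs had the higher value at 1 and 3 weeks and the lower one at 12 weeks. Of the 3 EGF receptor ligands, *Areg* and *Ereg* were higher and *Hbegf* lower in KO MΦs at 12 weeks.

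*Igf1* (ENSMUSG00000020053, chr10:87858265-87937042, plus strand) encodes a growth factor that resident MΦs are known to make. It had 452, 2533 and 1391 normalized counts in Het MΦs at 1, 3 and 12 weeks. KO MΦs had 770, 1015 and 43.9, the last from 69 reads in a library of high depth. The log2 ratio was 0.77 (0.58 to 0.95) at 1 week, -1.32 (-1.44 to -1.20) at 3 weeks and -4.98 (-5.35 to -4.64) at 12 weeks, when the level in KO MΦs was 31.7-fold lower. In Het MΦs *Igf1* was highest at 3 weeks, with a log2 ratio of 2.49 over 1 week, a peak that only *Grn* shared.

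*Pdgfa* (ENSMUSG00000025856, chr5:138976014-138997370, minus strand) and *Pdgfb* (ENSMUSG00000000489, chr15:79995874-80014977, minus strand) encode the A and B chains of platelet-derived growth factor, which recruits fibroblasts and pericytes. *Pdgfa* had 269, 384 and 765 normalized counts in Het and 337, 346 and 73.9 in KO MΦs at 1, 3 and 12 weeks. *Pdgfb* had 774, 557 and 2115 in Het and 1123, 918 and 159 in KO MΦs. Both were thus highest in the 12-week Het library and lowest in the 12-week KO library. The log2 ratio of *Pdgfa* was 0.33 (0.07 to 0.59), -0.15 (-0.42 to 0.13) and -3.37 (-3.66 to -3.10), and that of *Pdgfb* 0.54 (0.39 to 0.68), 0.72 (0.51 to 0.93) and -3.73 (-3.92 to -3.55). At 12 weeks the level in KO MΦs was 10.4-fold lower for *Pdgfa* and 13.3-fold lower for *Pdgfb*.

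*Grn* (ENSMUSG00000034708, chr11:102430315-102437048, plus strand) encodes progranulin, a lysosomal and secreted glycoprotein. It had 16750, 18633 and 16834 normalized counts in Het and 14263, 17788 and 10799 in KO MΦs at 1, 3 and 12 weeks, a 1.73-fold span and the narrowest of the 10 genes. Its log2 ratio was -0.23 (-0.27 to -0.20), -0.07 (-0.10 to -0.03) and -0.64 (-0.67 to -0.61), lower in KO MΦs at every age. Antisense or opposite-strand genes share exon sequence with *Pdgfa* (*6330403L08Rik*), *Ereg* (*Gm19610*) and *Grn* (*Fam171a2*, at most 10.6 normalized counts), and the strand setting of the counting was not given in the sources used here, so reads of such pairs may be mixed.

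**Figure D3:**
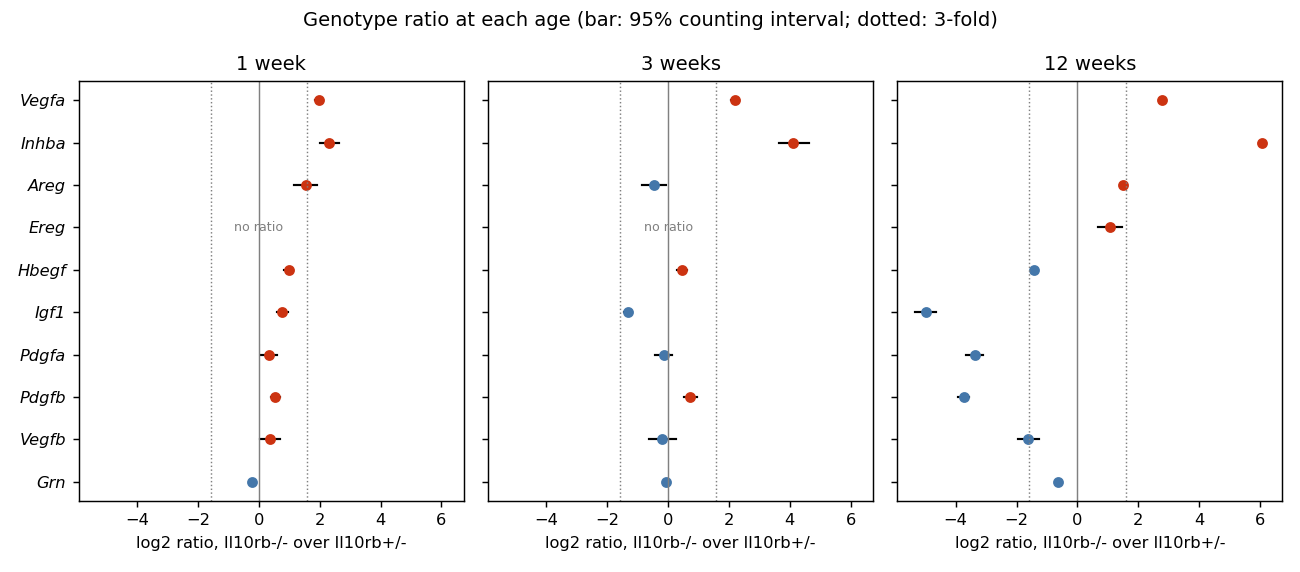
Log2 ratio of KO over Het MΦs for each of the 10 genes at 1, 3 and 12 weeks (1 panel per age), with bars for 95% counting intervals, dotted lines at 3-fold, red for higher and blue for lower in KO. *Ereg* is marked as having no ratio at 1 and 3 weeks, where at least 1 library had 0 reads. The ratios spread with age, and at 12 weeks run from -4.98 (*Igf1*) to 6.07 (*Inhba*).

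Between ages, most members were higher at 12 than at 3 weeks in Het MΦs, whereas in KO MΦs some were higher and others lower. These comparisons use the same 6 libraries as those between genotypes and are not separate evidence. From 1 to 3 weeks in Het MΦs, *Igf1* was over 3-fold higher (5.2% of all genes were) and no member over 3-fold lower (1.36%). From 3 to 12 weeks in Het MΦs, 6 members were over 3-fold higher (5.41% of all genes), *Vegfa*, *Inhba*, *Areg*, *Ereg*, *Hbegf* and *Pdgfb*, and none was lower (0.949%). From 1 to 3 weeks in KO MΦs only *Ereg* passed 3-fold upward (3.88% of all genes), from 0 to 7 reads, and none passed it downward (1.15%). From 3 to 12 weeks in KO MΦs, *Vegfa*, *Inhba*, *Areg* and *Ereg* were over 3-fold higher (5.75% of all genes) and *Igf1*, *Pdgfa* and *Pdgfb* over 3-fold lower (8.45%). *Pdgfb* moved by 1.92 in Het and -2.53 in KO MΦs on the log2 scale over this span, and *Hbegf* by 1.82 in Het and by -0.07 in KO MΦs, where the interval held 0. *Inhba* moved by 2.31 in Het and 4.26 in KO MΦs.

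Across the 3 ages, no member and none of 11067 genes (percent called 0.0) passed an adjusted p of 0.05 in limma with genotype and age as terms. The targeted gene *Il10rb* was among the genes not called, though 102-fold lower in KO MΦs at 1 week and 38.2-fold at 3 weeks. A fit that does not call this gene cannot show that a member did not differ. At an unadjusted p under 0.05 limma had 853 of the 11067 genes, and some genes pass this threshold with no effect. *Inhba* differed by 4.16 ± 0.67 (log2, SE, 3 libraries per genotype), higher in KO MΦs at 3 of 3 ages, with an unadjusted p of 0.00106, an adjusted p of 0.519 in limma and a range of 0.000226 to 0.986 over the alternatives run. Its 3-week pair took part in its choice for the study's heat map. Without the 3-week libraries it differed by 4.19, with an adjusted p of 0.30 in limma. *Igf1* differed by -1.84 ± 1.01 (limma adjusted p = 0.627), lower in KO MΦs at 2 of 3 ages, and *Areg* by 0.86 ± 0.43 (limma adjusted p = 0.627), higher at 2 of 3. The other 6 tested members had limma adjusted p values of 0.646 to 0.997. The error of this model is the variation of the genotype difference between ages, so it is large for genes whose ratio changed with age and tests neither a single age nor a difference between ages.

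The patterns over the 6 libraries grouped the members. Pearson's r of log2(value + 1) was 0.97 between *Vegfa* and *Inhba*, 0.94 between *Pdgfa* and *Pdgfb*, 0.92 between *Igf1* and *Grn*, 0.91 between *Igf1* and *Pdgfa* and 0.89 between *Areg* and *Ereg*, and it was -0.84 between *Inhba* and *Grn*. All pairs share the same 6 libraries and their scaling, and the 12-week KO library is an extreme for most of them, so these are descriptions. Among all genes past the filter, the patterns most like that of *Vegfa* were those of *Rassf3* (r = 0.996), *Gm4070* (0.993) and *Srpk1* (0.992). The nearest to *Inhba* were *Ltf* (0.998), which encodes lactoferrin, *Gsr* (0.996) and *Pbxip1* (0.994). The nearest to *Igf1* were *Ctnnd1* (0.998), *Gstm5* (0.998) and *Agfg2* (0.997), and those to *Areg* included *Med28* (0.995) and *Mrpl52* (0.992). The highest were *Slamf9* for *Vegfb*, *Ddah2* for *Pdgfa*, *Gm5547* for *Pdgfb*, *Cdh13* for *Hbegf*, *Pvrl1* for *Ereg* and *Ttc5* for *Grn*.

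Not all other ligands of the same families reached the filter. Of 17 related ligands 15 were listed and 7 passed the filter. At 12 weeks in KO MΦs 1 of the 7 passed 3-fold upward (4.03% of all genes) and 2 passed it downward (9.99%). Their median log2 ratio was -0.88. *Nrg1*, which encodes neuregulin 1, a ligand of the ERBB receptors, had 15.9, 41.4 and 174 normalized counts in Het and 106, 114 and 2839 in KO MΦs at 1, 3 and 12 weeks. *Pgf* had 2598, 3220 and 5098 in Het and 1486, 2593 and 904 in KO MΦs. *Nrg1* was thus higher in KO at each age and *Pgf* lower at each. *Pdgfc* had 531 reads in 12-week Het and 0 in 12-week KO MΦs, at least 131-fold lower against a floor of 3 reads in the KO library. *Hgf*, which encodes hepatocyte growth factor, had a log2 ratio of -1.03 (-1.31 to -0.76) at 12 weeks. At 3 weeks no related ligand passed 3-fold (1.34% of all genes upward and 0.642% downward), and at 1 week only *Nrg1* did, upward (2.75%).

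Receptors of the 10 ligands lay on both sides of 0 at 12 weeks. Of 18 receptors 15 passed the filter. In 12-week KO MΦs 5 of them were over 3-fold lower (9.99% of all genes) and none higher (4.03%), with a median log2 ratio of -0.41. The 5 were *Flt1*, *Nrp1*, *Pdgfra*, *Egfr* and *Erbb3*, named after their values were seen. *Nrp1*, a VEGF co-receptor and the receptor of the list with the most reads, had 1533, 1884 and 2113 normalized counts in Het and 1240, 1450 and 700 in KO MΦs at 1, 3 and 12 weeks. *Nrp2* had a log2 ratio of 0.68 (0.61 to 0.76) at 12 weeks. *Egfr* had 261 reads in 12-week Het and 1 in 12-week KO MΦs, a log2 ratio of -7.60 (-12.91 to -5.11). None of the 15 passed 3-fold at 3 weeks (1.34% of all genes upward and 0.642% downward). *Flt1* and *Pdgfra* did at 1 week, upward (2.75%), on 0 against 3 and 1 against 2 reads.

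Binding proteins, inhibitors and processing enzymes moved in both directions. Of 20 such genes 15 passed the filter. In 12-week KO MΦs 1 of them passed 3-fold upward (4.03% of all genes) and 4 passed it downward (9.99%). Their median log2 ratio was -0.09. The 1 higher gene was *Slpi*, a protease inhibitor known to protect progranulin from cleavage, with 17.8, 253 and 851 normalized counts in Het and 79.4, 552 and 20013 in KO MΦs at 1, 3 and 12 weeks. The lower genes were *Igfbp4*, *Igfbp7*, *Fstl1* and *Rhbdf1*, and these 5 are named after their values were seen. *Igfbp4*, which binds IGF1, had 4315 normalized counts in Het and 765 in KO MΦs at 12 weeks, when *Igf1* was also lower. *Adam17*, the sheddase of EGF receptor ligands, had a log2 ratio of 0.77 (0.73 to 0.81), *Furin*, which cuts growth factor precursors, -0.65 (-0.69 to -0.62), *Cd9*, a tetraspanin that binds the HB-EGF precursor, -0.63 (-0.66 to -0.59) and *Psap*, a binding partner of progranulin, -0.29 (-0.30 to -0.28) at 12 weeks. None passed 3-fold at 3 weeks (1.34% of all genes upward and 0.642% downward), and *Igfbp3*, *Adam8* and *Slpi* did at 1 week, upward (2.75%).

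Genes tied to the response to hypoxia, a group to which *Vegfa* belongs, were mostly higher in KO MΦs at 12 weeks. The cause was not tested. Of 14 such genes, all past the filter, 12 were higher (52.0% of all genes), 8 of them over 3-fold (4.03%). Only *Adm* was over 3-fold lower (9.99%), and the median log2 ratio was 2.06 against 0.04 for all genes. *Slc2a1*, the main glucose transporter of many cells, had 1480, 1538 and 3878 normalized counts in Het and 2648, 3426 and 24937 in KO MΦs at 1, 3 and 12 weeks. *Hif1a*, the oxygen-regulated transcription factor subunit, had 3095, 4081 and 5190 in Het and 2730, 6820 and 26064 in KO MΦs, and *Ldha*, lactate dehydrogenase A, 7576 and 26338 at 12 weeks. At 3 weeks 11 of the 14 were higher (52.1% of all genes) but none over 3-fold (1.34%), with a median of 0.31. At 1 week the median was -0.05 and only *Egln3* passed 3-fold, upward (2.75% of all genes), while *Vegfa* was 3.92-fold higher.

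**Figure D4:**
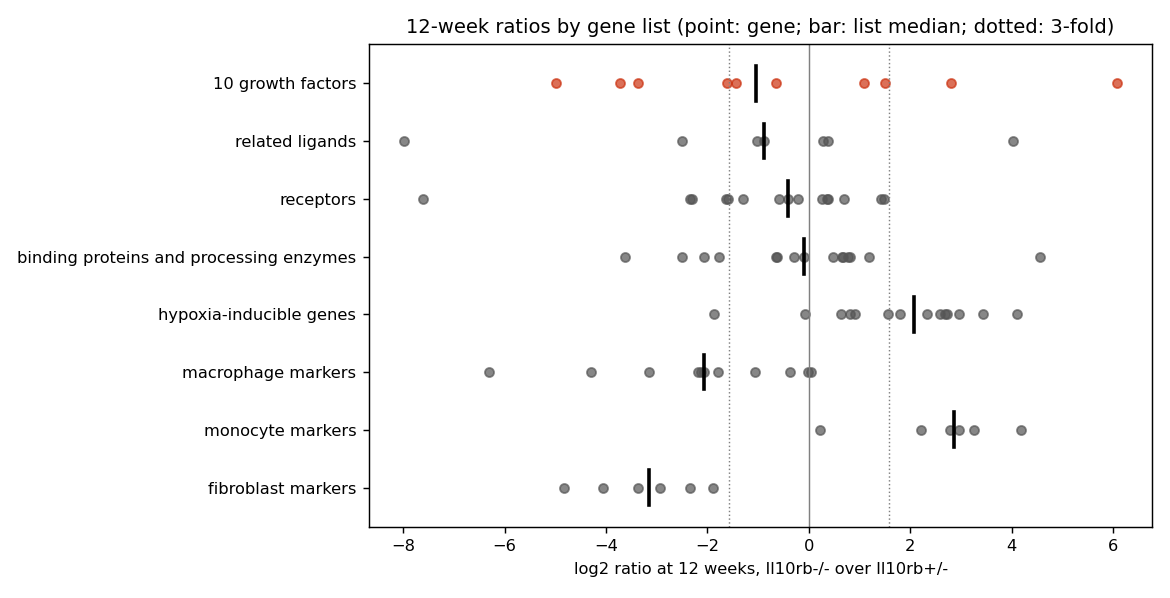
Log2 ratio of KO over Het MΦs at 12 weeks for the 10 growth factor genes (red) and 7 other gene lists (grey), 1 point per gene past the filter and a bar at each list median, with genes at 0 reads set at 1. The median is 2.06 for the hypoxia list (labelled hypoxia-inducible genes), 2.87 for monocyte markers, -2.08 for macrophage markers and -3.15 for fibroblast markers. It is -1.03 for the 10 growth factors, which lie on both sides of 0.

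Marker genes of several cell types moved with these changes at 12 weeks, and their part in the values above was not tested. The sum of 11 macrophage markers was 223833 to 255127 normalized counts in 5 libraries and 96011 in 12-week KO MΦs. There 7 of 11 were over 3-fold lower (9.99% of all genes) and none was at 0. *Csf1r*, the receptor that MΦs depend on, had 47225 in 12-week Het and 46878 in 12-week KO MΦs, whereas *Cx3cr1* had 8074 and 906, *Mrc1* 12185 and 618 and *Cd163* 4112 and 52.2. The sum of 6 monocyte markers was 4310 to 21494 in the other 5 libraries and 32121 in 12-week KO MΦs, with 5 of 6 over 3-fold higher (4.03% of all genes). Although the gate was Ly6C-, *Ly6c2* RNA had 143 normalized counts in 12-week Het and 2611 in 12-week KO MΦs. The sum of 5 neutrophil markers was 78.3 to 520.5 elsewhere and 6217 in 12-week KO MΦs, and 3 of the 4 past the filter were over 3-fold higher (4.03% of all genes). That of 5 dendritic cell markers was 1224 to 10830 elsewhere and 39825 there, of which *Ccr7* made up 38707.

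Fibroblast markers, of a cell type that the CD45+ and CD64+ gate should leave out, summed to 159, 2808 and 3927 normalized counts in Het and 1140, 2930 and 327 in KO MΦs at 1, 3 and 12 weeks. In KO MΦs 5 of 6 were over 3-fold higher at 1 week (2.75% of all genes), the sixth (*Pdgfra*) having 1 against 2 reads. All 6 were over 3-fold lower at 12 weeks (9.99%). At 3 weeks their sums were close (2808 and 2930), while *Igf1* was 2.50-fold lower in KO MΦs. The sum of 5 endothelial markers was 428 to 1962 over the libraries, with 3 of 5 over 3-fold lower at 12 weeks (9.99% of all genes). That of the 4 platelet markers was 6217 to 10403 in 5 libraries and 110 in 12-week KO MΦs. *Pf4* alone made up 8551 of the platelet sum of 8809 in 1-week Het MΦs. At 3 weeks it made up 9953 of 10403 in Het and 5989 of 6217 in KO MΦs. The sum of 4 B and plasma cell markers was 418 to 1349 before 12 weeks, 16412 in 12-week Het and 1739 in 12-week KO MΦs. Epithelial markers (8 of 9 listed) summed to 139, 1280 and 824 in Het and 774, 628 and 1891 in KO MΦs at 1, 3 and 12 weeks. *Areg* was likewise higher in KO MΦs at 1 and 12 weeks and lower at 3 weeks, and any link was not tested. T cell and innate lymphoid markers summed to 1326 to 3550 (5 of 6), and eosinophil markers to 35.0 to 201 (2 of 4). *Cd4* made up 3227 of the T cell and innate lymphoid sum of 3543 in 1-week Het MΦs, where *Cd3e* had 0 reads. In 12-week KO MΦs *Cd4* made up 210 of 1326. Of the 6 mast cell markers only *Kit* was listed, at 114 to 2554. At 3 weeks, where *Inhba* was 17.3-fold and *Vegfa* 4.59-fold higher, the summed macrophage markers were 255127 in Het and 227749 in KO, dendritic cell markers 1224 and 3331 and neutrophil markers 416 and 270. Monocyte markers summed to 21347 and 21494, of which *Ccr2* made up 20629 and 19378, while *Ly6c2* had 9.73 and 285 and *Plac8* 513 and 1706. *Kit* had 114 and 541 and *Ccr7* 1029 and 3159.

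**Figure D5:**
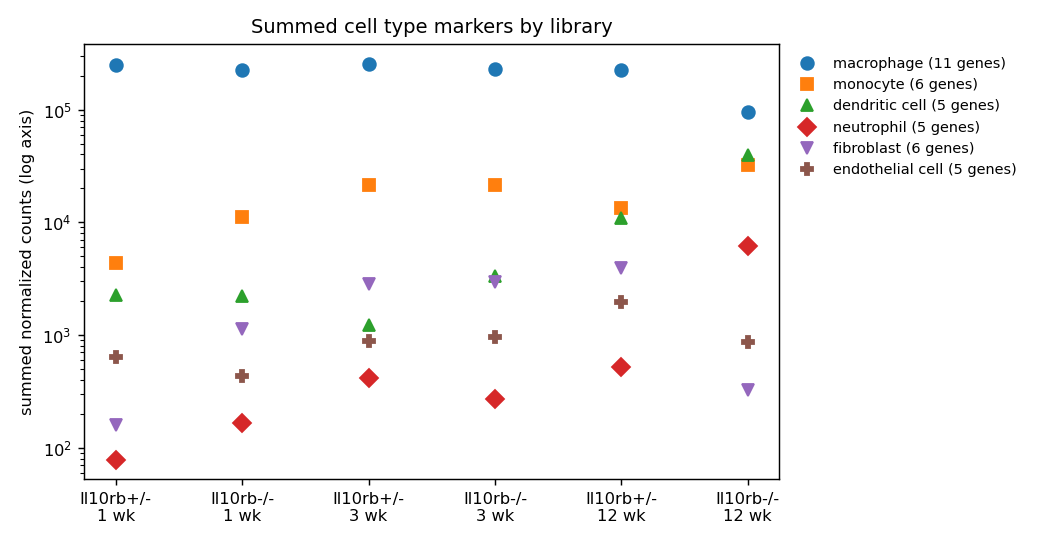
Summed normalized counts (log axis) of the markers of 6 cell types in each library, 1 symbol per cell type. The 12-week KO library has the lowest macrophage sum (96011) and the highest monocyte (32121), dendritic cell (39825) and neutrophil (6217) sums.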

How the data were processed

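RNA of sorted colonic MΦs was sequenced in 6 libraries, and labels gave the genotype and age of each. The deposited signal is the authors' normalized counts: per the methods and the labels, single-end reads were trimmed with Trim Galore, aligned to mm10 with TopHat, counted with HTSeq and divided by DESeq size factors, and 0 was shown as 1. Versions, gene annotation and strand setting are not given in the sources used here. The labels name a SMART-Seq kit, and the methods name oligo dT beads. Apart from 1, all values in a library were whole multiples of a single step (100%, within 0.01 read, steps of 0.473 to 2.43 normalized counts), which gave the reads used for depth and counting intervals.

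Log2 ratios used the normalized counts with no pseudocount. Counts of genes over 3-fold took the 11067 genes at 50 normalized counts or more in any library, and a fold against 0 reads was bounded with 3 reads in that library. Genotypes were compared across ages with limma 3.58.1 (R 4.3.3) on log2(value + 1), with terms for genotype and age, moderation with a trend on the mean, and p values adjusted by Benjamini-Hochberg. The libraries are 1 per group, so p values measure the spread between ages and animals together. Ratios and intervals were computed in Python 3.11.15 (scipy 1.17.1, numpy 2.4.6, pandas 2.3.3), and matplotlib 3.10.9 drew the plots. Coordinates and exon lengths are from GENCODE for GRCm38 (14085 of 14097 genes found). Steps were tested on simulated data.

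The 10 genes and the other lists were chosen with earlier results of these data known. All 10 are named. Of other lists, the 4 genes with the most reads could be named, and genes named beyond these were chosen after their values were seen. For each member the 3 genes of highest Pearson r were sought. The text names all 3 for *Vegfa*, *Inhba* and *Igf1*, and fewer for the others. Alternatives were the scaling, pseudocount, filter, threshold, age term, length and leaving out each age. Count models were planned as alternatives and were not run, because the deposited table holds normalized values with replaced zeros.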

Additional observations from a re-analysis of the deposited data

Results flagged for a closer look

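For 6 of the 10 genes the genotype ratio lay on opposite sides of 0 at different ages beyond counting error, so that KO MΦs had the higher level at 1 age and the lower at another. The gap between the highest and the lowest of the 3 log2 ratios was 5.75 for *Igf1*, 4.45 for *Pdgfb*, 3.70 for *Pdgfa*, 2.41 for *Hbegf*, 2.01 for *Areg* and 1.98 for *Vegfb*. In 5 of them the 12-week ratio was the lowest, and in *Areg* the 3-week ratio was. With 1 library per genotype and age, the difference between ages was not tested.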

How the results depend on the processing

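The 29 log2 ratios of the 10 genes between genotypes kept their sign under TMM scaling, scaling by total reads and a pseudocount of 10, with largest shifts of 0.03, 0.22 and 2.07. Of 39 ratios between ages, all kept their sign under TMM scaling and a pseudocount of 10 (largest shifts 0.03 and 3.16). Scaling by total reads (largest shift 0.42) turned 3 of them, all with main intervals that held 0: *Vegfb* at 12 over 3 weeks in Het MΦs (0.20 to -0.04), and *Pdgfa* (0.04 to -0.14) and *Hbegf* (0.06 to -0.12) at 3 over 1 weeks in KO MΦs. Scaling by total reads moved the median ratio of all genes at 12 weeks from 0.04 to -0.19. The number of members over 3-fold between genotypes was 2 at 1 week, 2 or 3 at 3 weeks (3 only where the 0 reads of *Ereg* count as 1) and 5 to 7 at 12 weeks under these settings and other filters, including a minimum of 10 reads that was chosen after seeing the data. With a 2-fold threshold it was 3, 4 and 9. In limma across ages, 0 genes passed, and 1 did with a pseudocount of 10 and 1 without the age term, neither of them a member. Leaving out 1 age gave 3 to 61 genes. These were 20 genes without 1 week and 61 without 12 weeks, each time with *Inhba*, and 3 genes and 0 members without 3 weeks. No test is read for *Vegfa*, which was chosen by its rise. The limma adjusted p of *Inhba* was 0.0225 without 1 week and 0.000226 without 12 weeks. Both of these fits hold the 3-week pair that took part in its choice, and without that pair it was 0.30. Fits that leave out 1 age hold 2 libraries per genotype. The planned count models were not run, as the table holds normalized values. The limma fit with an age term is the analysis paired by age, and the fit without that term is its unpaired form. The labels give no other replicate numbers. Depth limits *Ereg* before 12 weeks (0 to 7 reads) and *Inhba* in 3-week Het MΦs (36 reads).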
